A study of Bos taurus with 24 samples.

Results

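The 5 microRNAs (miRNAs) described here are bta-miR-23a, bta-miR-23b-3p, bta-miR-27a-3p, bta-miR-27b and bta-miR-24-3p, the main mature products of the paralogous miR-23/27/24 clusters of the cow. They were chosen by name, as members of these clusters, and not by a rule on their levels, but with earlier results of these data known. They are 5 of the 870 miRNAs listed in the deposited table. All 5 were among the 181 miRNAs on which tests were run, those above 25 RPMM (reads per 1000000 mapped reads) on every day in 6 or more libraries of 8.

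Plasma miRNAs were compared over the oestrous cycle in 8 Holstein-Friesian heifers that were not pregnant. Each animal gave 1 small-RNA library at oestrus (Day 0, when heat was first seen), 1 on Day 8 and 1 on Day 16, which makes 24 libraries. All heifers had been synchronised with a progesterone-releasing intravaginal insert, buserelin and cloprostenol before Day 0, so the 3 groups share this treatment. Time since the treatment and the order of sampling go with the day and cannot be told apart from it. Plasma was prepared from EDTA blood by a slow and then a fast spin, the fast one meant to deplete platelets. Total miRNA counts lay between 1299679 and 4700764 per library (medians of 2761491, 3390108 and 2945688 on Days 0, 8 and 16). Plasma miRNA comes from many cell types, so fewer cells releasing a miRNA and less miRNA released per cell cannot be told apart.

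A miRNA is a short RNA that guides the silencing machinery to messenger RNAs, chiefly by pairing of its seed, the bases near its 5′ end. In mammals the miR-23/27/24 genes exist as an "a" cluster, transcribed between protein-coding genes, and a "b" cluster, carried in an intron of AOPEP, an aminopeptidase gene. The primary transcript of each cluster is cut into hairpins that yield a miR-23, a miR-27 and a miR-24. In human and mouse cells miR-27 represses regulators of fat cell formation and lipid metabolism, miR-23a represses glutaminase, an enzyme of glutamine breakdown, and the miR-23 and miR-27 families act in endothelial sprouting and in lymphocytes. In plasma work miR-23a is also used as a steady partner for miR-451, a red cell miRNA, in a ratio that reports haemolysis.

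Coordinates are those of the deposited table (bovine assembly UMD 3.1). miR-23a lay at chr7:10102172-10102193, miR-27a-3p at chr7:10102355-10102374 and miR-24-3p at chr7:10102506-10102527, all on the plus strand and within 356 bp. On the other chromosome miR-23b-3p lay at chr8:85962081-85962103 and miR-27b at chr8:85962312-85962332, also on the plus strand. RefSeq (assembly ARS-UCD2.0, used for names and neighbours only) lists MIR23A, MIR27A and MIR24-2 on chromosome 7 between NANOS3 and ZSWIM4, overlapping the uncharacterised LOC132345691. It lists MIR23B, MIR27B and MIR24-1 on chromosome 8 within AOPEP, with no other gene between the 3 hairpins. The 2 miR-24 genes are known to give the same 3p product, which the table lists once, under chromosome 7, so the miR-24-3p count cannot be assigned to 1 cluster.

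The mature sequences of 4 members were taken from the list of isomiRs (length and sequence forms of a miRNA) that accompanies the study, in DNA letters, and are shown because the seeds group the members and because the miR-27 pair is nearly identical. Capitals mark the seed, bases 2 to 8 from the 5′ end.
miR-23a: aTCACATTgccagggatttcca
miR-27a-3p: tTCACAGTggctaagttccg
miR-27b: tTCACAGTggctaagttctgc
miR-24-3p: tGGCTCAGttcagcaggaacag

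miR-27a-3p and miR-27b shared the whole seed, while the seeds of miR-23a and miR-27a-3p were the same at 6 of 7 bases. miR-24-3p had an unrelated seed. Over the 20 aligned bases of the miR-27 pair there was 1 difference, C19T (miR-27a-3p first, counted from the 5′ end), close to the 3′ end. The listed form of miR-27a-3p with 1 more base than its canonical form shows the place when set beside miR-27b, with the distinguishing base in capitals.
miR-27a-3p: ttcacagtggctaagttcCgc
miR-27b: ttcacagtggctaagttcTgc

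Shortened reads that end before this base belong equally to both. The isomiR list holds 4 such forms, of 18, 17, 16 and 15 bases, and enters all of them under miR-27a-3p. The longest of them ends at the last base that the pair shares.
shared form: ttcacagtggctaagttc

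Reads were matched to mature miRNAs with a single mismatch allowed, so counts of near-identical copies, here the miR-27 pair and the miR-23 pair, may have been split between them by the counting. The size of any such split was not tested.

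miR-27b was the most abundant of the 5, at 19219 ± 4353 RPMM (SD, n = 24 libraries), the 9th highest mean of all 870 miRNAs. Its seed partner miR-27a-3p followed at 5685 ± 1622 RPMM (rank 28). The miR-23 pair was lower, with miR-23a at 2278 ± 535 RPMM (rank 39) and miR-23b-3p at 1342 ± 331 RPMM (rank 54). miR-24-3p had the lowest level of the 5, 383 ± 86.3 RPMM (rank 96). These are levels of sequencing reads. Ligation and amplification in library preparation act unequally on different miRNAs. The ranks are therefore not ranks of concentration in plasma, which was not tested here. On PCR arrays of pools of the same plasma samples, the authors found miR-27a, miR-23a and miR-24 among the most abundant miRNAs. The paper describes miR-27a and miR-23a as reportedly high in leukocytes and miR-24 as reportedly high in thrombocytes. By reads, the more abundant copy was the "b" copy for miR-27 and the "a" copy for miR-23.

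The order miR-27b, miR-27a-3p, miR-23a, miR-23b-3p, miR-24-3p held in 24 of 24 libraries, so no neighbours in this order changed place. The count of miR-27b was 2.13 to 5.19 times that of miR-27a-3p (median 3.60), and miR-27a-3p was 1.70 to 3.42 times miR-23a (median 2.57). miR-23a was 1.55 to 1.99 times miR-23b-3p (median 1.72), the narrowest of these ranges. miR-23b-3p was 1.81 to 6.64 times miR-24-3p (median 3.46), the widest. Together the 5 members took 2.72% to 5.86% of all miRNA counts of a library (medians of 4.87%, 4.01% and 3.54% on Days 0, 8 and 16), and the miR-27 pair supplied 81.1% to 89.8% of their reads.

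The other products of the clusters that the table lists were close to absent. bta-miR-27a-5p, the opposite arm of the miR-27a hairpin, had 96 counts in the 24 libraries together, and the entry bta-miR-24 on chromosome 8 had 79. bta-miR-23b-5p had 3 counts in all and was at 0 in 21 libraries. The human entry hsa-miR-27a-3p, placed at the same start as the bovine one and listed 1 base longer, had 29 counts. None of these passed the limit on low levels and none was tested.

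In RPMM, miR-27b had a lowest, median and highest value of 13318, 19473 and 25006 on Day 0, of 13755, 20609 and 26372 on Day 8, and of 12138, 17576 and 26159 on Day 16. miR-27a-3p had 4323, 6976 and 8531 RPMM on Day 0, 3456, 5006 and 8069 on Day 8, and 3407, 4659 and 7183 on Day 16. In both, the ranges of the 3 days overlapped over most of their width, with the median of miR-27a-3p highest on Day 0.

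miR-23a had a lowest, median and highest value of 1831, 2594 and 3255 RPMM on Day 0, of 1595, 2308 and 2951 on Day 8, and of 1209, 2020 and 2689 on Day 16. miR-23b-3p had 1112, 1501 and 1803 RPMM on Day 0, 945, 1219 and 1873 on Day 8, and 652, 1172 and 1738 on Day 16. miR-24-3p had 269, 412 and 570 RPMM on Day 0, 265, 380 and 539 on Day 8, and 209, 343 and 504 on Day 16. For these 3 as well the ranges overlapped, and the lowest medians were those of Day 16.

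RPMM values shift as a whole when a few miRNAs take a larger part of a library. Scaled by RPMM, the median log2 difference of all 181 tested miRNAs was −0.12 for Day 16 against Day 0 and −0.17 for Day 16 against Day 8, against 0.00 for both after scaling by the trimmed mean of M-values (TMM). Differences between days are therefore given below after TMM scaling, as counts per 1000000 miRNA counts (CPM).

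After TMM scaling, miR-23a averaged 3594 ± 419, 3042 ± 505 and 3046 ± 698 CPM on Days 0, 8 and 16 (SD, n = 8 per day), and miR-23b-3p 2118 ± 179, 1787 ± 376 and 1802 ± 480 CPM. miR-27a-3p averaged 9359 ± 1578, 7268 ± 1897 and 7519 ± 1681 CPM. For these 3 members both later days had lower means than Day 0 and stood close to each other. miR-27b averaged 27563 ± 4264, 26763 ± 3035 and 27200 ± 5533 CPM, and miR-24-3p 576 ± 86.0, 517 ± 114 and 556 ± 168 CPM, with means that differed by less than the SD of any day.

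**Figure D1:**
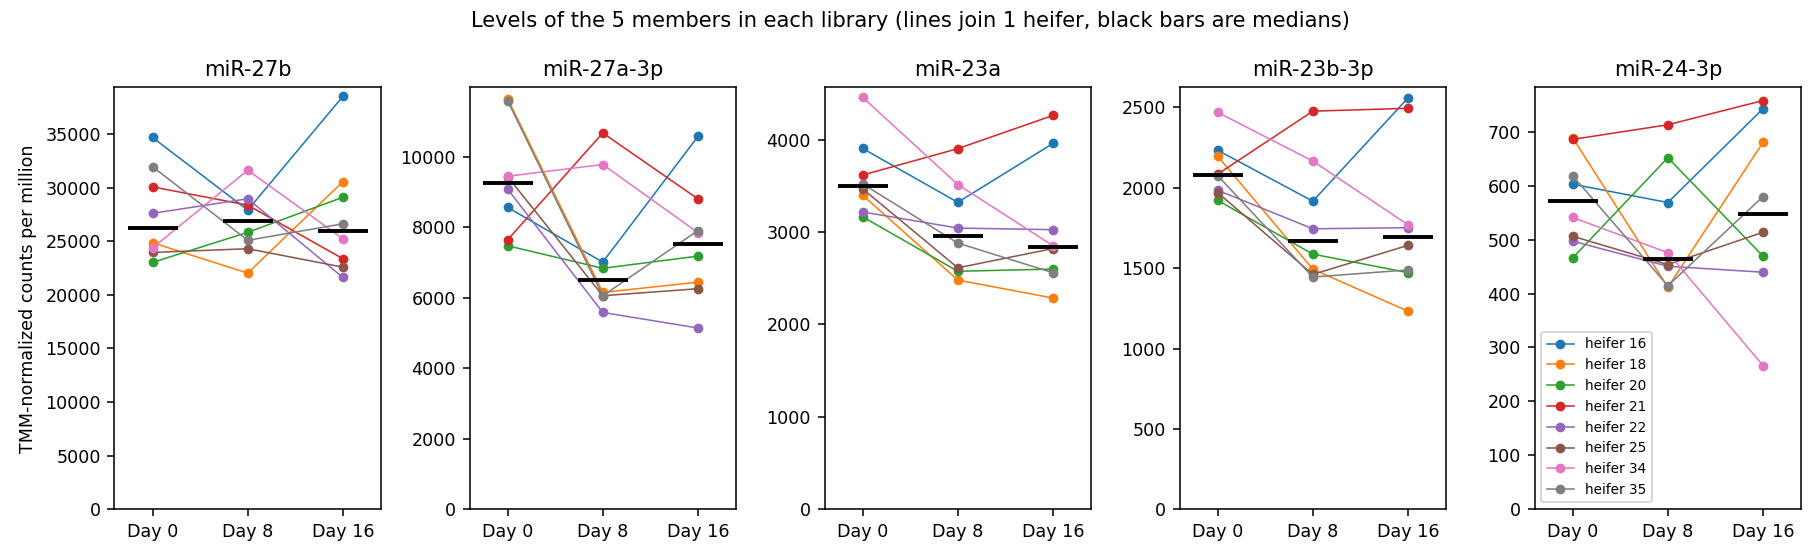
Level of each of the 5 members in each of the 24 libraries, as TMM-normalized CPM (y axis, from 0, with its own scale in each panel) on Days 0, 8 and 16 (x axis). Points are libraries, lines join the 3 libraries of 1 heifer and black bars are medians over 8 heifers; for miR-23a the median was 3495 CPM on Day 0, 2962 on Day 8 and 2837 on Day 16, with overlapping ranges.

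The question the design puts to these miRNAs is whether they differ between oestrus and the later days of the cycle. By edgeR's quasi-likelihood test with the heifer as a term and Benjamini-Hochberg adjustment over the 181 miRNAs tested, 0 of the 5 members passed an adjusted p of 0.1 for the overall effect of day, nor did any other miRNA (0% of all tested). At an unadjusted p under 0.05 there were 3 of the 5, miR-23a, miR-23b-3p and miR-27a-3p, against 12.7% of all tested. That count was 0 of 5 without heifer 18, 25 or 35, 1 of 5 without heifer 20, 22 or 34, and 0 of 5 without the pairing by heifer. Over all 181 miRNAs the count was 23 with all heifers and 15 without the pairing. It was 18, 8 and 17 without heifer 18, 25 or 35, and 26, 13 and 17 without heifer 20, 22 or 34. The 3 members are not independent, since miR-23a and miR-23b-3p had a Pearson correlation of 0.96 over the 24 libraries. DESeq2 also called 0 of the 5 after adjustment (8 of all 181 miRNAs), whereas limma-voom with sample weights called those 3 (14 of all 181).

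For Day 8 against Day 0, 0 of 5 members passed the adjusted test of edgeR (1.10% of all tested in either direction), while 3 of 5 had an unadjusted p under 0.05, against 14.4% of all tested (26 miRNAs, 20 of them lower on Day 8). That count was 0 of 5 without heifer 25, 1 of 5 without heifer 18 or without the pairing, and 0 of 5 after scaling by total counts or with limma on RPMM values. Over all 181 miRNAs the count was 19 without heifer 25, 29 without heifer 18 and 19 without the pairing. Scaling by total counts gave 16 there, and limma on RPMM values gave 16 or 17 by the value added before the logarithm. The log2 fold change was −0.40 for miR-27a-3p (SE 0.15, adjusted p = 0.212 from edgeR), −0.27 for miR-23b-3p (SE 0.12, adjusted p = 0.244) and −0.26 for miR-23a (SE 0.11, adjusted p = 0.240). That of miR-24-3p was −0.16 (SE 0.16) and that of miR-27b −0.03 (SE 0.13). DESeq2 called 1 of 5, miR-27a-3p (15 of all 181 miRNAs), and limma-voom with sample weights 3 of 5 (26 of all 181).

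For Day 16 against Day 0, 0 of 5 members passed the adjusted test of edgeR (0% of all tested). The same 3 members had an unadjusted p under 0.05, against 14.4% of all tested (26 miRNAs, 16 of them lower on Day 16). That count was 0 of 5 without heifer 18, 25 or 35 or without the pairing, and 1 of 5 without heifer 20 or 34. Over all 181 miRNAs the count was 12, 10 and 17 without heifer 18, 25 or 35 and 12 without the pairing. It was 25 and 21 without heifer 20 or 34. The log2 fold change was −0.35 for miR-27a-3p (SE 0.15), −0.27 for miR-23b-3p (SE 0.12) and −0.26 for miR-23a (SE 0.11), all 3 at an edgeR adjusted p of 0.340. miR-24-3p was at −0.09 (SE 0.16) and miR-27b at −0.02 (SE 0.13). DESeq2 called 0 of 5 (3 of all 181 miRNAs) and limma-voom with sample weights 3 of 5 (19 of all 181).

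No member passed the test between the later days. For Day 16 against Day 8 the log2 fold changes lay between −0.01 for miR-23a and 0.07 for miR-24-3p, with standard errors of 0.11 to 0.16. On the RPMM scale all 5 were below 0, from −0.18 for miR-23a to −0.105 for miR-24-3p, on a median of −0.17 over all tested miRNAs. By edgeR 0 of 5 members passed the adjusted test (0% of all tested) and 0 of 5 had an unadjusted p under 0.05, against 3.87% of all tested. DESeq2 and limma-voom with sample weights also called 0 of 5, and 0 of all 181 miRNAs.

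**Figure D2:**
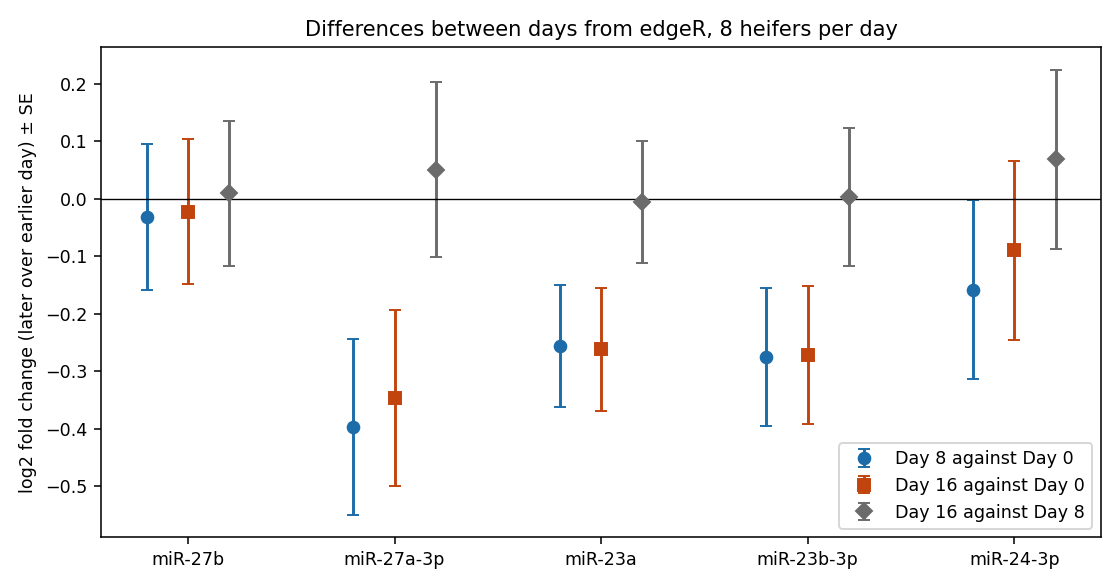
Log2 fold change of each member from edgeR (y axis, later over earlier day, TMM scaling, bars ± 1 SE) for Day 8 against Day 0, Day 16 against Day 0 and Day 16 against Day 8, 8 heifers per day. miR-27a-3p, miR-23a and miR-23b-3p lie between −0.40 and −0.26 in both comparisons with Day 0, and all 5 members lie near 0 between Days 16 and 8.

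With the later days averaged and set against Day 0, the log2 fold change was −0.37 for miR-27a-3p (SE 0.13, unadjusted p = 0.0102 and adjusted p = 0.155 from edgeR). It was −0.26 for miR-23a (SE 0.09, unadjusted p = 0.0104 and adjusted p = 0.155 from edgeR) and −0.27 for miR-23b-3p (SE 0.10, unadjusted p = 0.0152 and adjusted p = 0.183 from edgeR). miR-27b was at −0.03 (SE 0.11, adjusted p = 0.865 from edgeR) and miR-24-3p at −0.12 (SE 0.13, adjusted p = 0.622). By edgeR 0 of 5 members passed the adjusted test, against 2.76% of all tested. At an unadjusted p under 0.05 there were 3 of 5, against 17.1% of all tested (31 miRNAs, 26 of them lower on the later days). The median of the 5 members was −0.26, and that of all 181 miRNAs 0.03.

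The calls depended on the tool and on single animals. Of all 181 miRNAs, DESeq2 called 15 in the averaged comparison and limma-voom with sample weights 30. Each called 3 of the 5 members, miR-23a, miR-23b-3p and miR-27a-3p. Without heifer 21, edgeR called the same 3, with log2 fold changes of −0.34, −0.37 and −0.49 and adjusted p of 0.0280, 0.0319 and 0.0229. Over all alternatives the adjusted p of the averaged comparison ran from 0.0153 to 0.562 for miR-23a, from 0.0176 to 0.562 for miR-23b-3p and from 0.0086 to 0.446 for miR-27a-3p. The direction of these 3 members was kept under every alternative of this comparison. Without heifer 21, 27 of all 181 miRNAs passed the adjusted test of this comparison, against 5 with all heifers, 3 without heifer 20 and 0 without heifer 16, 18, 22, 25, 34 or 35. The count of members at an unadjusted p under 0.05 in this comparison was 2 of 5 without heifer 18 and 3 of 5 without any other heifer. Over all 181 miRNAs that count was 31 with all heifers, 22 without heifer 18 and 23 to 49 without any other heifer.

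Within heifers, the log2 level (TMM-scaled CPM) of miR-23a on the later days minus Day 0 was lowest in heifer 18, at −0.51, and highest in heifer 21, at 0.17, and it was below 0 in 7 of 8 heifers. For miR-23b-3p the same difference ran from −0.70 in heifer 18 to 0.25 in heifer 21, again below 0 in 7 of 8. Heifer 21 was the exception for both on this scale, whereas on the RPMM scale both members were below 0 in 8 of 8 heifers. For miR-27a-3p it ran from −0.89 in heifer 18 to 0.34 in heifer 21 and was below 0 in 6 of 8, with heifer 16 at 0.01. For miR-27b and miR-24-3p 5 of 8 heifers were below 0.

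**Figure D3:**
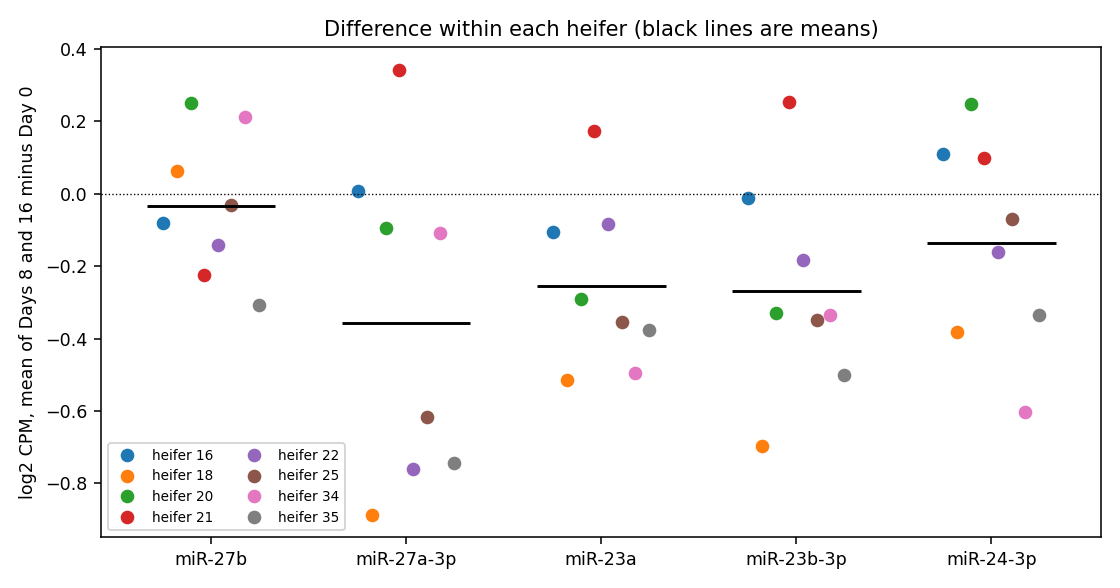
Difference within each heifer between the mean of Days 8 and 16 and Day 0 (y axis, log2 TMM-normalized CPM, later days minus Day 0) for the 5 members (x axis). Each point is 1 of 8 heifers and the black line is the mean; heifer 21 is the highest point for miR-27a-3p, miR-23a and miR-23b-3p and heifer 18 the lowest.

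Differences between heifers took the largest part of the sum of squares of log2 CPM for the miR-23 pair. That part was 54.9% for miR-23a and 51.5% for miR-23b-3p, with 21.9% and 19.2% along the days. For miR-27a-3p the heifer took 25.3% and the day 26.2%. The medians over all 181 miRNAs were 41.8% for the heifer and 8.05% for the day. The day took 0.549% of the sum of squares of miR-27b. After TMM scaling miR-27b had a log2 SD of 0.21 over the 24 libraries, the 7th lowest of 181, where the median miRNA had 0.39. On the RPMM scale it did not stand out in this way: its log2 SD was 0.33 (26th lowest), beside 0.34 for miR-24-3p (27th lowest) and a median of 0.45.

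Ratios between members within a library do not depend on how libraries are scaled. In all, 4 ratios were compared over 3 pairs of days, 12 comparisons together, with an exact sign-change permutation test within heifers (two-sided, smallest possible p of 0.0078). After Benjamini-Hochberg adjustment over the 12 comparisons none passed 0.05, but with 8 heifers a single comparison could not have passed alone, since its adjusted p cannot fall below 0.0938.

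The ratio of miR-27b to miR-27a-3p had a geometric mean of 2.95 on Day 0, 3.76 on Day 8 and 3.64 on Day 16. On Day 8 it was higher than on Day 0 by 0.35 ± 0.46 on the log2 scale (mean ± SD, n = 8), in 6 of 8 heifers, with an exact permutation p of 0.0703 (adjusted p = 0.422). On Day 16 it was higher than on Day 0 by 0.30 ± 0.50 (n = 8), in 6 of 8 heifers, with an exact permutation p of 0.133 (adjusted p = 0.531). Heifers 16 and 21 went the other way both times. Whether miR-27a-3p and miR-27b differ in their response to the day was not settled by this test.

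The ratio of miR-27b to its cluster partner miR-23b-3p had a geometric mean of 12.9, 15.2 and 15.3 on Days 0, 8 and 16. On Day 8 it was higher than on Day 0 by 0.23 ± 0.31 (n = 8), in 6 of 8 heifers, with an exact permutation p of 0.0703 (adjusted p = 0.422). On Day 16 it was higher than on Day 0 by 0.24 ± 0.55 (n = 8), in 5 of 8 heifers, with an exact permutation p of 0.250 (adjusted p = 0.750). The highest single value was 24.8 and the lowest 9.37, both on Day 16.

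By reads, the miR-23 pair kept a nearly fixed proportion. Whether a split of reads between these near-identical copies enters this proportion was not tested. miR-23a over miR-23b-3p had a geometric mean of 1.69, 1.71 and 1.70 on Days 0, 8 and 16, and the differences between days were 0.02 ± 0.13, 0.01 ± 0.14 and −0.01 ± 0.14 (log2, SD, n = 8) for Day 8 against Day 0, Day 16 against Day 0 and Day 16 against Day 8. The exact permutation p was 0.727 or more in each. miR-27a-3p over miR-23a, partners on chromosome 7, had a geometric mean of 2.59, 2.35 and 2.47 on Days 0, 8 and 16, with exact permutation p of 0.398 or more.

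**Figure D4:**
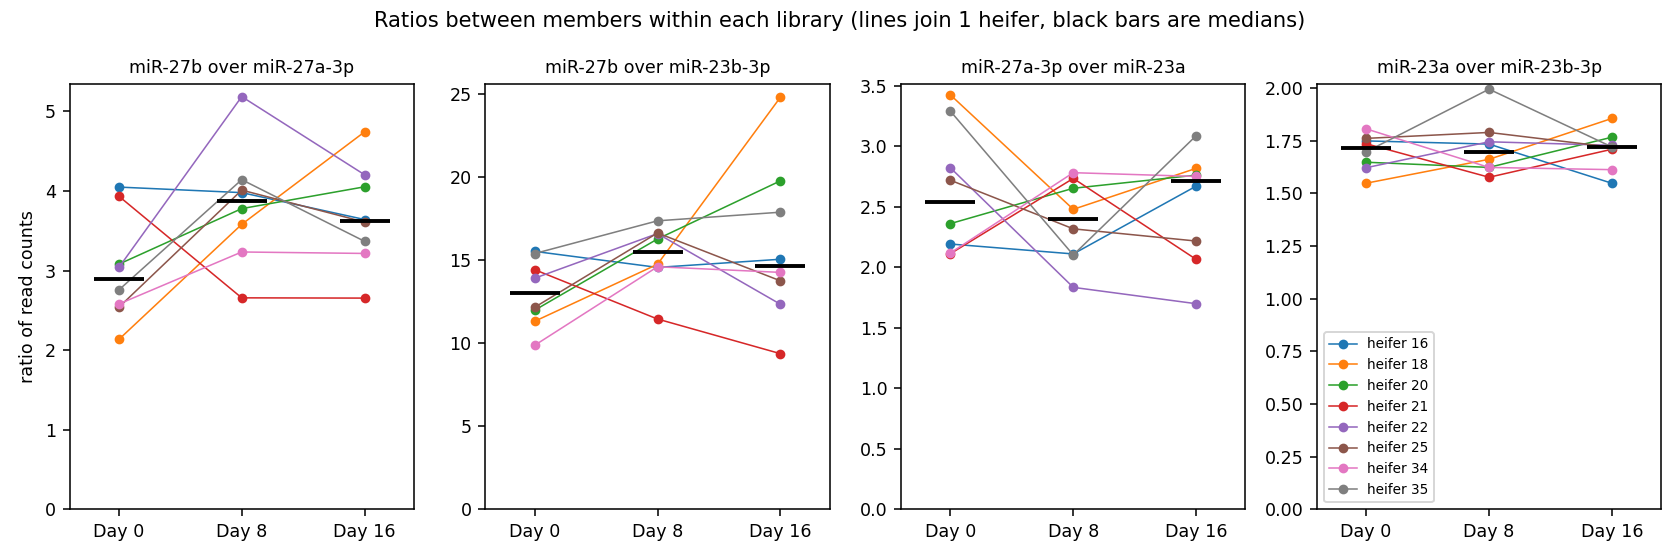
Ratio of read counts between 2 members in each library (y axis, from 0, own scale in each panel) on Days 0, 8 and 16 (x axis). Lines join the 3 libraries of 1 heifer and black bars are medians over 8 heifers; miR-23a over miR-23b-3p stays between 1.55 and 1.99 in all 24 libraries, while miR-27b over miR-27a-3p runs from 2.13 to 5.19.

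Over the 24 libraries (8 heifers, 3 libraries each, which share depth and scaling) miR-23a and miR-23b-3p followed each other most closely, with a Pearson correlation of log2 CPM of 0.96, and 0.89 after the means of heifers and days were removed. miR-23b-3p and miR-27a-3p, which lie on different chromosomes, had 0.74, and miR-23a and miR-27a-3p, partners on chromosome 7, had 0.66. miR-27b and miR-23b-3p, partners on chromosome 8, had 0.28, and the miR-27 pair had 0.42. Within single days (8 libraries each) miR-27b and miR-23b-3p had 0.14, 0.77 and 0.12 on Days 0, 8 and 16. In the same order miR-23a and miR-27a-3p had 0.06, 0.79 and 0.58, and miR-23b-3p and miR-27a-3p had 0.28, 0.89 and 0.63. The miR-27 pair had 0.05, 0.59 and 0.63, and the miR-23 pair 0.90, 0.93 and 0.99. Differences between correlations, and the effect on them of reads split between near-identical copies, were not tested. On the RPMM scale, where the members also share shifts of the whole library, miR-27b had 0.63 with miR-23b-3p and 0.67 with miR-27a-3p.

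**Figure D5:**
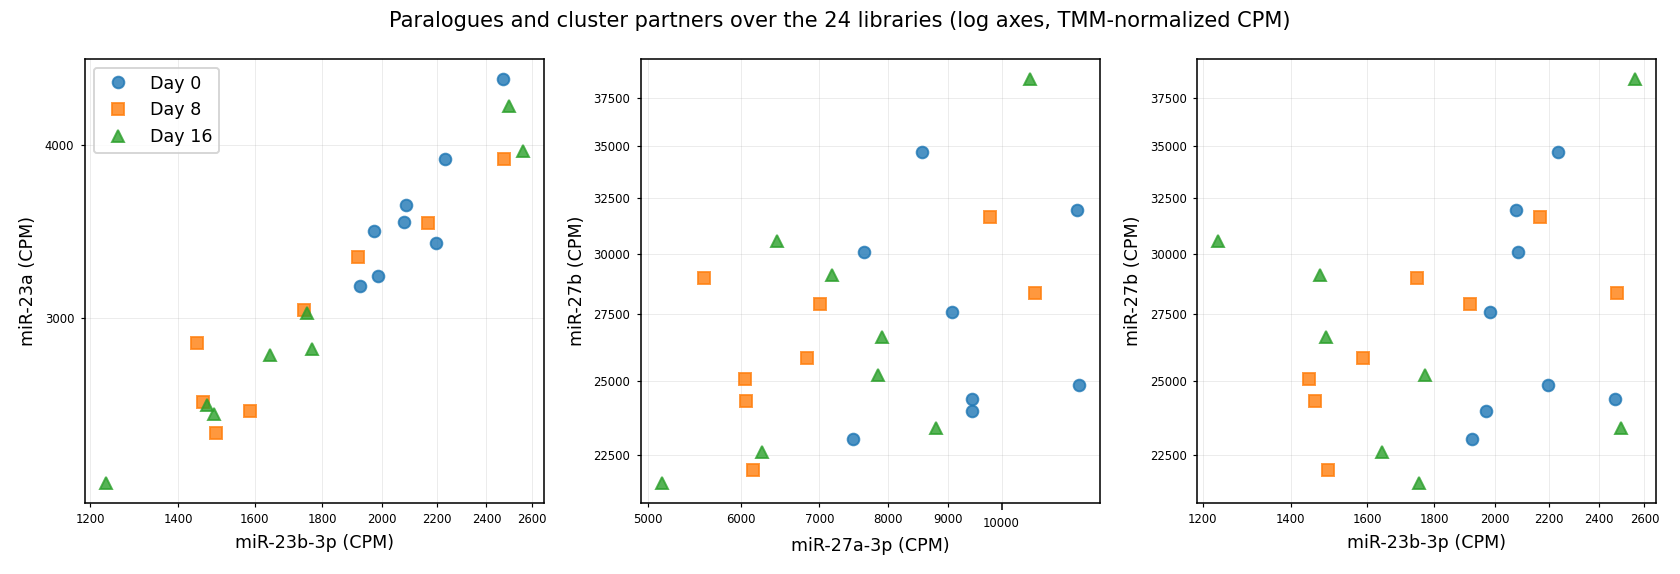
Level of 1 member against another in the 24 libraries (TMM-normalized CPM, both axes logarithmic, symbols by day) for miR-23a against miR-23b-3p (left), miR-27b against miR-27a-3p (middle) and miR-27b against miR-23b-3p (right). The points of the left panel lie close to a line (Pearson correlation of log2 values 0.96), and those of the other panels scatter widely (0.42 and 0.28).

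Among the tested miRNAs outside the 5, the 3 whose log2 CPM was most like each member over the 24 libraries are given as a description. For miR-27a-3p they were miR-532, miR-22-5p and miR-100, with Pearson correlations of 0.78, 0.77 and 0.73. For miR-27b they were miR-148a, miR-22-3p and miR-29a, with 0.69, 0.66 and 0.60. For miR-23a they were miR-381, miR-361 and miR-205 (0.56, 0.52 and 0.52), and for miR-23b-3p miR-205, miR-199a-5p and miR-200a (0.57, 0.54 and 0.54). For miR-24-3p they were miR-410, miR-200a and miR-215 (0.62, 0.60 and 0.57). miR-27b ran against the red cell miRNAs, with −0.57 for miR-486 and −0.51 for miR-451. The same correlations were −0.31 and −0.29 for miR-23a, −0.28 and −0.22 for miR-23b-3p, and −0.30 and −0.20 for miR-27a-3p. Those of miR-24-3p were −0.03 and −0.06.

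The summed share of 6 erythrocyte markers was 11.6% to 53.4% of miRNA counts on Day 0, 14.0% to 44.9% on Day 8 and 20.0% to 53.7% on Day 16, with medians of 27.7%, 22.9% and 36.9%. The platelet list (5 miRNAs) had medians of 6.09%, 8.23% and 5.87% on Days 0, 8 and 16, and the leukocyte list (7 miRNAs) 4.17%, 4.80% and 3.89%. These medians moved by fewer percentage points than those of the erythrocyte list, but from lower shares. No marker of the 3 lists was at 0 in any library. The listed miRNAs were thus read in every library, which does not show that blood cells were present. The lists overlap, with miR-223 in both the platelet and the leukocyte list, so the shares are not those of separate cell types. They also overlap with the list of endothelial and vascular miRNAs used below. That list shares miR-126-3p and miR-126-5p with the platelet list and miR-92a with the erythrocyte list. The part of blood cells in the results for the 5 members was not tested. miR-451, which accumulates in red cells, had a log2 fold change of 0.59 (SE 0.28, adjusted p = 0.340 from edgeR) for Day 16 against Day 0.

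The ratio of miR-451 to miR-23a, the pair used for haemolysis, was higher on Day 16 than on Day 0 by 0.94 ± 0.73 on the log2 scale (mean ± SD, n = 8), in 7 of 8 heifers. With miR-23b-3p or miR-27a-3p in place of miR-23a it was higher by 0.95 ± 0.72 and 1.01 ± 0.85, and with miR-24-3p or miR-27b by 0.79 ± 0.78 and 0.71 ± 0.99, each in 7 of 8 heifers. All of these ratios share miR-451 as numerator, so they are not separate observations. They are ratios of read counts, with no threshold for haemolysis. The authors controlled for haemolysis by absorbance and by the difference of this pair in PCR cycles. The ratios were not tested, and haemolysis was not measured here.

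Endothelial sprouting is 1 of the several processes named above in which these families act. A list of 12 other endothelial and vascular miRNAs was therefore set beside them. Of the 11 tested, 0 passed the adjusted test of edgeR in any comparison. For the averaged later days against Day 0, 5 were below 0 and 6 above, with a median of 0.07. An unadjusted p under 0.05 was seen for 2 of 11, a share near the 17.1% of all tested. These 2 were miR-10b at −0.28 (SE 0.12) and miR-145 at −0.53 (SE 0.25). The 2 of the list with the lowest p for the overall effect of day were miR-10b and miR-126-5p. miR-10b, at 22948 ± 5108 RPMM (SD, n = 24) among the abundant miRNAs of the table, was at −0.45 (SE 0.14, adjusted p = 0.114 from edgeR) for Day 8 against Day 0. For Day 16 against Day 0 miR-10b was at −0.10 (SE 0.14). miR-126-5p, a product of an endothelial gene, was at 0.29 (SE 0.14, adjusted p = 0.340 from edgeR) for Day 16 against Day 0. It is also a marker of the platelet list above, so it does not stand for endothelium alone. For Day 8 against Day 0 miR-126-5p was at −0.05 (SE 0.14).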

How the data were processed

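The authors trimmed and filtered single-end small-RNA reads in sRNAtoolbox, matched them to bovine and human mature miRNAs of miRBase and mapped them to UMD 3.1 (Bowtie 0.12.9 in the submitters' processing notes), and deposited raw counts per miRNA. The authors also deposited the same table as RPM, called RPMM here. The table lists 626 bovine and 244 human entries, and 0 columns of per-sample values were left unused.

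Counts were tested with edgeR 4.0.16 (R 4.3.3; TMM, quasi-likelihood, heifer and day as terms) over 181 miRNAs, with Benjamini-Hochberg adjustment and a threshold of 0.1 for the adjusted p, after the study's own level. Samples were grouped by day from their titles. The same heifer gave 1 library per day, which pairs the samples; libraries of 1 heifer deviated together (median correlation 0.338 over 24 pairs, against −0.0447 over 168 pairs of different heifers). Ratios used SciPy 1.17.1. Counts per library were lowest for miR-24-3p (565 to 2955), so counting error was largest there.

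Alternatives were other scalings, DESeq2 1.42.0, limma 3.58.1 on log2(RPMM + 1) and log2(RPMM + 0.1), limma-voom with sample weights, a repeated-measures test, other limits on low counts, no pairing, and leaving out each heifer. Named miRNAs were the 5 members, the other cluster products listed, the 3 most like each member, miR-486 and miR-451, and 2 vascular miRNAs taken by their p for an effect of day, the lowest of the list. miR-145 is named as the other vascular miRNA under an unadjusted p of 0.05 in the averaged comparison. The members and lists were chosen with earlier results of these data known. Nothing in the sources used here says that libraries were prepared in separate batches.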

Additional observations from a re-analysis of the deposited data

Results flagged for a closer look

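Of 27 groups of 8 libraries examined (levels and ratios of the members by day), 1 held a value far from the others. On Day 8 the ratio of miR-27b to miR-23b-3p was 11.451 in heifer 21, against a median of 15.5 on that day; on the log2 scale its gap to the next heifer was 0.577 of the range of the group, where the critical value of Dixon's test for 8 values is 0.526. On the untransformed ratios the gap was 0.5256 of the range, short of that value. Chance alone marks about 1 in 20 such groups. In the same library miR-27a-3p was at 10673 CPM, the highest of Day 8.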

How the results depend on the processing

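By edgeR 0 of 5 members passed for the effect of day, Day 8 against Day 0, Day 16 against Day 0 and the averaged comparison, whereas limma-voom with sample weights gave 3, 3, 3 and 3, and DESeq2 gave 1 for Day 8 against Day 0 and 3 for the averaged comparison. Leaving out 1 heifer gave 0 to 2 for the effect of day and 0 to 3 for Day 8 against Day 0 and the averaged comparison, the higher values all without heifer 21 (Day 8 against Day 0: −0.35 for miR-23a, −0.39 for miR-23b-3p and −0.56 for miR-27a-3p). Over all 181 miRNAs the adjusted calls for the effect of day, Day 8, Day 16 against Day 0 and the averaged comparison were 0, 2, 0 and 5 by edgeR, 8, 15, 3 and 15 by DESeq2, and 14, 26, 19 and 30 by limma-voom. Under the other alternatives with all heifers they ran from 0 to 3, 0 to 8, 0 to 4 and 0 to 8. The 3 for the effect of day was among 697 miRNAs tested with no limit on low counts. The 8 for the averaged comparison was among 326 tested under another limit. With 1 heifer left out the calls among 181 ran from 0 to 14, 0 to 33, 0 to 3 and 0 to 27, the highest each time without heifer 21. The cause was not tested.

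Without the pairing by heifer (no replicate block), 0 of 5 passed in each comparison, and the averaged log2 fold changes were −0.24, −0.24, −0.34, −0.03 and −0.10 for miR-23a, miR-23b-3p, miR-27a-3p, miR-27b and miR-24-3p; only miR-23a on Day 16 against Day 8 turned, to 0.0019, and no adjusted call changed.

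Signs turned only where the log2 difference lay between −0.09 and 0.07. miR-27b for Day 8 against Day 0 was 0.0026 on log2(RPMM + 1), log2(RPMM + 0.1) and in the repeated-measures test. For Day 16 against Day 8, scaling by total counts gave −0.17 for miR-23b-3p, −0.12 for miR-27a-3p, −0.17 for miR-27b and −0.12 for miR-24-3p; both RPMM pseudocounts and the repeated-measures test gave −0.17, −0.11, −0.16 and −0.105 (total counts moved the median of all miRNAs by −0.17 there). For miR-23b-3p and miR-27b, leaving miR-486 out of the total gave −0.0048 and −0.0011, limma-voom −0.016 and −0.048, and no limit on low counts −0.039 and −0.027; limma-voom gave −0.018 for miR-24-3p. Leaving out 1 heifer gave −0.12 to 0.005 for miR-27b on Day 8 against Day 0, −0.071 to 0.012 for miR-27b and −0.15 to 0.015 for miR-24-3p on Day 16 against Day 0, and on Day 16 against Day 8 −0.044 to 0.060 for miR-23a, −0.061 to 0.071 for miR-23b-3p, −0.034 to 0.14 for miR-27a-3p and −0.055 to 0.090 for miR-27b. For the log2 ratios it gave −0.014 to 0.042, −0.027 to 0.036 and −0.031 to 0.022 for miR-23a over miR-23b-3p (Day 8 against Day 0, Day 16 against Day 0, Day 16 against Day 8), −0.13 to 0.027 and −0.0019 to 0.14 for miR-27a-3p over miR-23a (Day 16 against Day 0 and against Day 8), and −0.093 to 0.075 for miR-27b over miR-23b-3p (Day 16 against Day 8).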
